A study of Mus musculus with 4 samples.

Results

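The report concerns 10 genes used to recognise retinal ganglion cells, Pou4f1, Pou4f2, Pou4f3, Isl1, Isl2, Ebf1, Rbpms, Slc17a6, Thy1 and Nrn1, chosen by symbol from the 32285 genes of the count matrices, of which 17463 had at least 1 UMI (unique molecular identifier, a tag that marks 1 captured transcript). They were measured by Visium, in which a tissue section lies on a grid of barcoded spots and each spot reports the transcripts of the small region above it. Libraries came from 4 capture frames, 1 library each (biological replicates 1 to 4 in the labels), from cryosections of fresh-frozen posterior eyes of C57BL/6J mice, a common inbred strain. Every frame has Naive+AAV2/2 as its treatment in the labels. AAV2/2 is an adeno-associated virus used to carry genes into the retina. The study's design text describes vectors with a CMV promoter for the Wnt inhibitor Wif1, a GFP control vector, and eyes taken 2 and 4 weeks after injection, but the labels tie no frame and no spot to one of these states. A frame may therefore hold sections of more than 1 state, no age or sex of the animals is used here, and no comparison between conditions was made.

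Ganglion cells are the output neurons of the retina. Their cell bodies lie in the innermost cell layer, their axons run along the inner surface and leave the eye as the optic nerve, and they are the cells lost in glaucoma. During development the POU-domain factors of the Brn3 family (Pou4f1, Pou4f2 and Pou4f3) and the LIM-homeodomain factors Isl1 and Isl2 act in their specification and maintenance, with Pou4f2 and Isl1 known to act together in the newborn ganglion cell. Ebf1 belongs to a family of helix-loop-helix factors active in ganglion and other inner retinal neurons. Rbpms is an RNA-binding protein widely used to count ganglion cells, Slc17a6 encodes the vesicular glutamate transporter VGLUT2 used at their output synapses, Thy1 is a surface glycoprotein of neurons, T cells and fibroblasts, and Nrn1 encodes neuritin, a membrane-anchored promoter of neurite growth. Isl1 is also made by ON bipolar cells and cholinergic amacrine cells, and Ebf1 by cells of vessel walls and connective tissue.

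The frames held 1056 to 1243 spots over tissue and 674029 to 1066633 UMIs, with median UMIs per spot from 430 to 630.5. Of 2458 different spot barcodes, 1271 occurred in more than 1 frame, and spots were kept apart by frame. The 10 genes gave 2028 UMIs in all, and 814 of 4603 spots (17.7%) held at least 1 of them. Spots are mixtures of cells, and in them fewer cells of a type and less RNA per cell cannot be told apart.

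Gene positions below are those of RefSeq for GRCm38.p6. Pou4f1 lies at chr14:104461675-104468118, Pou4f2 at chr8:78433009-78436647, Isl1 at chr13:116298270-116309688 and Isl2 at chr9:55538677-55547667. Ebf1 lies at chr11:44618100-45008096, Rbpms at chr8:33782643-33929922, Slc17a6 at chr7:51621830-51671126, Thy1 at chr9:44043384-44048579 and Nrn1 at chr13:36725622-36734477. 

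RefSeq promoter entries existed for 6 of the 10 genes. The 250 bases before the gene start are shown for Pou4f2, Slc17a6 and Isl1. Over 44 sums of UMIs by frame and spot group (described below), the levels of Pou4f2 and Slc17a6 had a Pearson r of 0.72. Isl1 had an r of 0.38 with Pou4f2 and of 0.30 with Slc17a6. Capitals mark TAAT, the core letters bound by many homeodomain proteins, searched on both strands (ATTA on the printed strand would count too).
Pou4f2, chr8:78436648-78436897, minus strand: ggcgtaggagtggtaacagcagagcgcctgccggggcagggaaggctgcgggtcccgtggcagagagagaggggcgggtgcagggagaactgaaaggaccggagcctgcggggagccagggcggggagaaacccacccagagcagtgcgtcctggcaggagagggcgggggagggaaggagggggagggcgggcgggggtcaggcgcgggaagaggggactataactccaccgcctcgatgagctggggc
Slc17a6, chr7:51621580-51621829, plus strand: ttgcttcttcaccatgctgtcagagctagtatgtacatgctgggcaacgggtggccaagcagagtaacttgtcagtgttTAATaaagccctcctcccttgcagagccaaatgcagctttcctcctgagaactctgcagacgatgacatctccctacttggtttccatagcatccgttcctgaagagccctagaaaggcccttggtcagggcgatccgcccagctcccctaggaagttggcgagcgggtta
Isl1, chr13:116309689-116309938, minus strand: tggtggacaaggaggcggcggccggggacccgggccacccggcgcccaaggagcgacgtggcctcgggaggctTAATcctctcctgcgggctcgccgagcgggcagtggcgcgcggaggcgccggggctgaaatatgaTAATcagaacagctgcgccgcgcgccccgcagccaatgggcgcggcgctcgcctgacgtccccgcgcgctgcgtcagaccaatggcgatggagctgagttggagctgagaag
The window of Isl1 held TAAT at 2 places, that of Slc17a6 at 1 and that of Pou4f2 at 0. A second Slc17a6 entry, chr7:51624387-51624636 and not at the gene start, held it at 4. These letters occur in 54.9% of 32851 RefSeq promoter windows of the same length, so a match describes the sequence and nothing more.

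Levels are given in CPM, the UMIs of a gene per 1000000 UMIs of the frame or spot group. An interval beside a single CPM is an exact 95% Poisson interval, and one beside a share of spots is an exact Clopper-Pearson 95% interval. Both cover counting error only. Levels are compared within a gene, not between genes.

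Among the transcription factors, Pou4f1 and Pou4f2 were detected in every frame at 47.4 to 97.9 CPM. Pou4f1 had 74.8, 78.8, 75.7 and 97.9 CPM in frames 1 to 4, a mean of 81.8 ± 10.9 CPM (SD, n = 4 frames) from 284 UMIs. Pou4f2 had 72.6, 67.5, 47.4 and 80.1 CPM, a mean of 66.9 ± 14.0 CPM from 233 UMIs. Frame 4 was the highest for both and frame 3 the lowest for Pou4f2, and the intervals of frames 3 (34.2 to 64.1 CPM) and 4 (60.2 to 105 CPM) of Pou4f2 overlapped. Pou4f3 (chr18:42394597-42396093) was near the limit of detection, with 11 UMIs in 11 spots and 2.26 to 4.45 CPM per frame.

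The LIM factors rested on fewer UMIs. Isl1 had 22.3, 31.9, 29.4 and 19.3 CPM from 93 UMIs (mean 25.7 ± 5.89 CPM), with overlapping intervals in all 4 frames. Isl2 had 14 UMIs in 14 spots, with 1.12, 5.63, 3.39 and 5.93 CPM, and no order of frames can be read from so few. Ebf1 had 33.5, 40.3, 36.1 and 81.6 CPM from 160 UMIs. Frame 4 stood apart for Ebf1, and its interval of 61.5 to 106 CPM lay above those of frames 1, 2 and 3, the highest bound of which was 54.3 CPM.

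The effector genes were measured from 91 to 393 UMIs each. Rbpms had 19.0, 33.8, 22.6 and 26.7 CPM in frames 1 to 4. Slc17a6 had 89.3, 126, 67.8 and 132 CPM, with frames 1 and 3 below frames 2 and 4. The interval of frame 3 for Slc17a6 (51.7 to 87.2 CPM) lay below those of frames 2 (105 to 149 CPM) and 4 (106 to 162 CPM). Thy1 had 102, 124, 96.0 and 126 CPM and Nrn1 84.8, 113, 110 and 136 CPM. Summed over the 10 genes, the frames had 502, 623, 490 and 711 CPM (mean 582 ± 105 CPM). The neurofilament markers stood at 4691, 5707, 5877 and 6881 CPM in frames 1 to 4, also highest in frame 4, and their part in these levels was not tested.

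**Figure D1:**
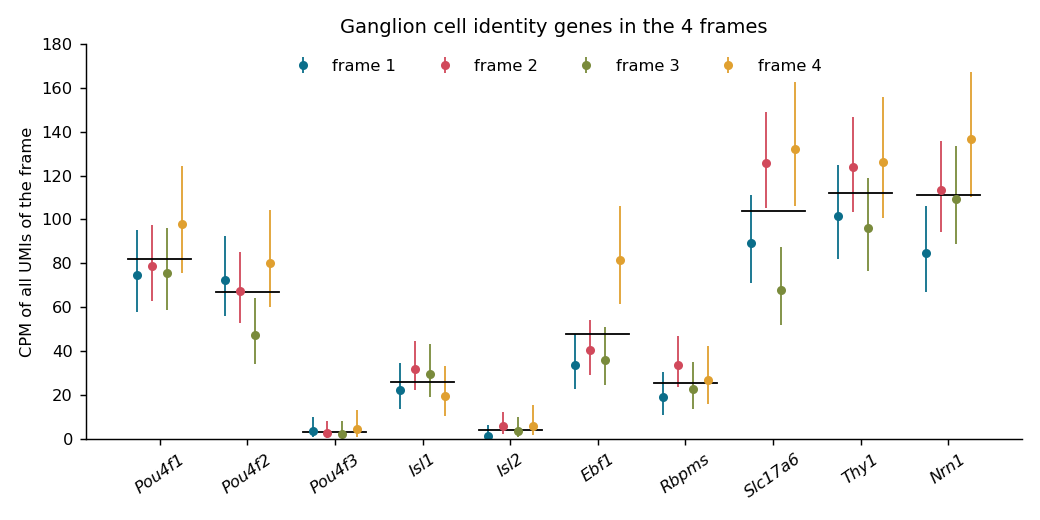
Level of each gene in the 4 frames, in CPM of all UMIs of the frame, with exact 95% Poisson intervals and the mean of the frames as a black line. Ebf1 in frame 4 sits at 81.6 CPM, above the 33.5 to 40.3 CPM of the other frames, while Pou4f3 and Isl2 lie near 0.

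To ask whether the genes follow an independent sign of ganglion cell material, spots were binned by their UMIs of Nefl, the neurofilament light chain, an abundant axonal protein of ganglion cells. Bins of 0, 1 to 2, 3 to 9 and 10 or more Nefl UMIs held 2265, 1208, 654 and 476 spots, and their median UMIs per spot were 367, 643, 690 and 1329.5. Depth thus rose along the bins, and CPM rather than shares of spots carry the comparison. The summed level of the 10 genes was 128 ± 54.1, 159 ± 47.3, 697 ± 200 and 1783 ± 167 CPM in the bins from low to high (SD, n = 4 frames). The lowest 2 bins did not differ beyond their spread, and each of the 4 frames had its highest level in the top bin.

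Pou4f1, Pou4f2 and Slc17a6 were higher in the top bin than in the bottom bin. Pou4f1 had 291, 274, 262 and 241 CPM in frames 1 to 4 in spots with 10 or more Nefl UMIs, against 0, 8.88, 13.8 and 28.1 CPM in spots with none. The frames of the top and bottom bins were far apart for Pou4f1, and the fitted log2 fold was 4.29 (adjusted p = 3.79e-06, edgeR's quasi-likelihood test with Benjamini-Hochberg adjustment, higher in 4 of 4 frames). Pou4f2 had 284, 204, 178 and 254 CPM in the top bin, against 6.62, 5.92, 0 and 18.7 CPM in the bottom bin (log2 fold 4.73, adjusted p = 1.08e-06). Slc17a6 had 358, 383, 239 and 374 CPM in the top bin, against 13.2, 17.8, 6.92 and 18.7 CPM in the bottom bin (log2 fold 4.36, adjusted p = 7.06e-08).

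Thy1 and Nrn1, whose products are anchored in the cell membrane, were likewise higher in the top bin. Thy1 had 385, 345, 312 and 311 CPM in spots with 10 or more Nefl UMIs, against 23.2, 23.7, 34.6 and 37.5 CPM in spots with none (log2 fold 3.32, adjusted p = 5.34e-07). Nrn1 had 331, 316, 373 and 412 CPM in the top bin, against 6.62, 17.8, 27.7 and 18.7 CPM in the bottom bin (log2 fold 4.11, adjusted p = 1.65e-07). Neither gene's frames overlapped between the top and bottom bins.

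Ebf1 and Rbpms were also higher in the top bin. Ebf1 had 87.9, 99.8, 94.7 and 216 CPM in the top bin, against 0, 26.6, 6.92 and 32.8 CPM in the bottom bin (log2 fold 2.72, adjusted p = 0.000322). Rbpms had 74.4, 91.5, 50.1 and 63.4 CPM in the top bin, against 6.62, 5.92, 20.8 and 9.36 CPM in the bottom bin (log2 fold 2.50, adjusted p = 0.00136). Every frame of both genes was higher in the top bin than any frame in the bottom bin.

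Isl1 did not follow this course. Its level was 16.6 ± 10.2, 27.2 ± 19.8, 31.0 ± 10.8 and 32.5 ± 11.6 CPM in the bins from low to high, and no neighbouring bins differed beyond their spread. In the top bin Isl1 had 27.0, 49.9, 27.8 and 25.4 CPM, against 3.31, 17.8, 17.3 and 28.1 CPM in the bottom bin, and these frames overlapped. Within frames, Isl1 was higher in the top bin in frames 1, 2 and 3 and lower in frame 4. The bins with 0, 1 to 2, 3 to 9 and 10 or more Nefl UMIs held 19.4%, 31.2%, 22.6% and 26.9% of all Isl1 UMIs, where the top bin held 68.3% of those of Pou4f1 and 70.0% of those of Pou4f2. Isl1 was too low to pass the filter of the test. With no filter on low counts its log2 fold was 0.88 with an adjusted p of 0.475, and the pooled ratio of 2.19 had a 95% counting interval from 1.15 to 4.25.

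The scarce pair leaned toward the top bin without a test that could carry them. Isl2 had 11 UMIs in the top bin and 2 in the bottom bin, a pooled ratio of 8.66 with an interval from 1.89 to 80.4 and an adjusted p of 0.169 with no filter. Pou4f3 had 6 UMIs in the top bin and 0 in the bottom bin. Its top-bin level was 3.15 times a floor of 3 UMIs over the bottom bin (adjusted p = 0.249, edgeR with no filter). That ratio leaves out the counting error of the 6 UMIs and is no lower bound. Of the 10 genes, 7 passed the filter and all 7 were called higher, where 1607 of the 3500 genes tested (45.9%) were called, 806 (23.0%) higher and 801 (22.9%) lower. A gene high in the top bin alone can pass this filter, so that count describes those 7 and is no measure of the 10.

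**Figure D2:**
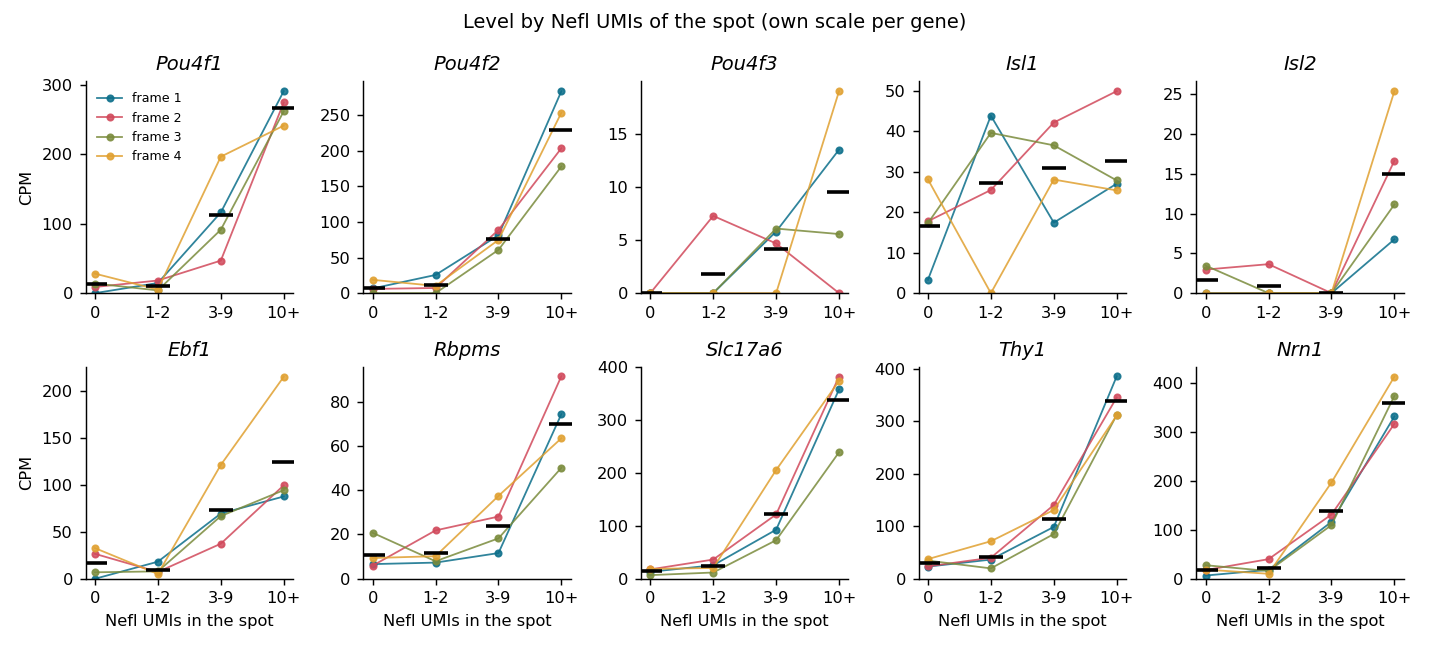
Level of each gene in CPM, on its own vertical scale, in spots with 0, 1 to 2, 3 to 9 and 10 or more Nefl UMIs, with 1 line per frame and a black bar for the mean of the 4 frames. Pou4f1 climbs to 241 to 291 CPM in the top bin in all frames, whereas the lines of Isl1 cross between 0 and 49.9 CPM.

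As shares of spots, at least 1 UMI of the 10 genes was found in 4.90% (interval 4.05 to 5.87%), 10.7% (8.99 to 12.6%), 35.2% (31.5 to 39.0%) and 72.3% (68.0 to 76.3%) of spots along the 4 bins. With each spot thinned to 300 UMIs, which left out 1270 shallower spots, the shares were 2.95%, 5.94%, 19.5% and 34.4%. The order of the bins was the same in both versions. Spots marked by rod genes, which should lack ganglion cell bodies, gave 5.48% unthinned and 1.70% thinned at a median depth of 784 UMIs. The unthinned share in spots without Nefl lay below that of rod spots at a lower depth, and its thinned share lay above. In level, the 10 genes had 123 CPM in spots without Nefl (interval 103 to 145 CPM), against 65.4 CPM in rod spots (50.7 to 83.1 CPM), and were higher in 4 of 4 frames. A spot can belong to both of these groups, and their difference was not tested.

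Spots were next placed by markers that exclude the 10 genes, each spot going to the marker list of which it held the largest excess. The lists covered neurofilament genes, 10 rod genes and markers of bipolar cells, amacrine cells, glia, pigmented cells, fibrous tissue, myelin, muscle, epithelium, blood and vessels. There were 598 neurofilament-rich spots, 1059 rod spots, 522 pigmented spots, 121 glial, 116 myelin, 100 amacrine, 85 fibrous, 80 bipolar, 71 vascular and 57 muscle spots, and 1749 spots stayed unplaced. Bipolar and amacrine spots together made 180 inner nuclear spots, 21 to 65 per frame. Neurofilament-rich spots are the regions led by Nefl, Nefm, Nefh and Sncg, and all 4 of these markers were detected in them. The neurofilament markers stood at 18702 to 21531 CPM in neurofilament-rich spots, against 2326 to 4606 CPM in inner nuclear, 1180 to 5683 CPM in fibrous and 795 to 1120 CPM in rod spots.

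The 10 genes together had 1868, 1918, 1588 and 1868 CPM in neurofilament-rich spots of frames 1 to 4. Inner nuclear spots had 343, 547, 88.1 and 307 CPM, fibrous spots 221, 204, 356 and 322 CPM, and rod spots 51.7, 43.8, 79.2 and 90.7 CPM. The neurofilament-rich frames lay above every frame of the other 3 groups. Vascular spots were mixed, with 1488, 440, 357 and 1390 CPM of the 10 genes, and they also held 3655 to 10045 CPM of neurofilament markers. Glial spots had 553 ± 102 CPM and 3014 CPM of neurofilament markers on average. In myelin spots 7 of the 10 genes had 0 UMIs and the other 3 had 1 or 2, and the floor there was 63.9 CPM per gene, so lower levels were not detectable at this depth.

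The share of each gene's UMIs that fell in neurofilament-rich spots separated them further. It was 75.1% for Pou4f2, 72.2% for Pou4f1, 65.8% for Slc17a6, 62.7% for Nrn1, 61.6% for Thy1, 56.3% for Ebf1 and 47.3% for Rbpms. For Isl1 it was 24.7%, with 35.5% in unplaced, 15.1% in inner nuclear and 14.0% in rod spots. The scarce genes Isl2 and Pou4f3 had 57.1% and 54.5% there, from 14 and 11 UMIs.

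**Figure D3:**
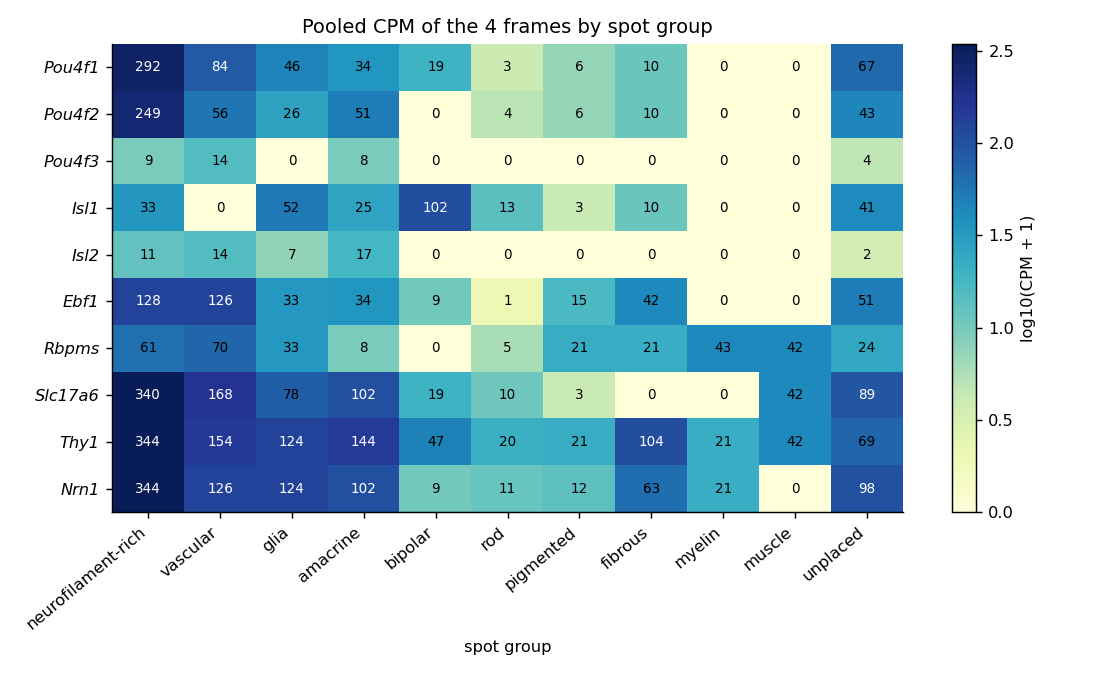
Level of each gene in 11 groups of spots, as CPM of the UMIs pooled over the 4 frames, written in each cell and coloured by log10(CPM + 1). Pou4f2 and Pou4f1 are highest in neurofilament-rich spots, and Isl1 is highest in bipolar spots, at 102 CPM pooled.

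Against rod spots, which mark the photoreceptor layer, 7 of the 10 genes could be tested and all 7 were higher in neurofilament-rich spots, where 1902 of 3303 genes tested (57.6%) were called, 973 (29.5%) higher and 929 (28.1%) lower. Here too a gene can pass the filter through neurofilament-rich spots alone, so the count describes those 7. Rod spots held 3 UMIs of Pou4f1, 4 of Pou4f2, 1 of Ebf1, 5 of Rbpms, 10 of Slc17a6, 11 of Nrn1 and 20 of Thy1. Pou4f1 had 338, 295, 266 and 274 CPM in neurofilament-rich spots, against 0, 3.65, 3.60 and 4.54 CPM in rod spots. The rod value rests on 3 UMIs, so the difference is given as a pooled ratio of 99.5 with a counting interval from 33.6 to 486 (adjusted p = 8.28e-11, edgeR). Pou4f2 had 331, 240, 190 and 255 CPM in neurofilament-rich spots, against 7.95, 0, 0 and 9.07 CPM in rod spots (log2 fold 5.70, adjusted p = 1.35e-09). No frame of the rod spots exceeded 9.07 CPM for either Brn3 gene.

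Ebf1 had 131, 109, 108 and 176 CPM in neurofilament-rich spots and a single UMI in rod spots, a pooled ratio of 131 with an interval from 22.9 to 5233 (adjusted p = 1.89e-08, edgeR). Slc17a6 had 352, 408, 238 and 353 CPM in neurofilament-rich spots, against 11.9, 7.29, 7.20 and 13.6 CPM in rod spots (log2 fold 4.89, adjusted p = 7.02e-11). Nrn1 had 269, 340, 396 and 359 CPM in neurofilament-rich spots, against 0, 7.29, 28.8 and 4.54 CPM in rod spots (log2 fold 4.85, adjusted p = 8.69e-10). Frame 3 gave 8 of the 11 Nrn1 UMIs in rod spots. Thy1 differed by a log2 fold of 3.95 (adjusted p = 4.15e-10) and Rbpms by 3.35 (adjusted p = 9.47e-05), each higher in 4 of 4 frames.

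Isl1 had 27.6, 49.9, 21.7 and 26.1 CPM in neurofilament-rich spots, against 15.9, 3.65, 10.8 and 22.7 CPM in rod spots. Within each frame Isl1 was higher in neurofilament-rich spots, though across frames the groups overlapped between 21.7 and 22.7 CPM. The pooled ratio was 2.58 (interval 1.25 to 5.54), and with no filter the adjusted p was 0.285 (edgeR). Isl2 and Pou4f3 had 0 UMIs in rod spots and 8 and 6 in neurofilament-rich spots. Their neurofilament-rich levels were 3.88 and 2.91 times a floor of 3 UMIs over the rod spots. Those ratios leave out the counting error of the 8 and 6 UMIs and are no lower bounds. With no filter the adjusted p-values of Isl2 and Pou4f3 were 0.0843 and 0.21 (edgeR).

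Inner nuclear spots gave the test of neighbouring neurons, and there 6 of the 10 genes could be tested. All 6 were higher in neurofilament-rich spots, where 190 of 1966 genes tested (9.66%) were called, 94 (4.78%) higher and 96 (4.88%) lower. Inner nuclear spots held 6 UMIs each of Pou4f1 and Pou4f2, 5 of Ebf1, 13 of Nrn1, 14 of Slc17a6 and 22 of Thy1. Each of the 6 could pass the filter through neurofilament-rich spots alone, so the count describes those 6. Inner nuclear spots of frames 3 and 4 held only 34056 and 16282 UMIs of all genes. In those spots 0 CPM, here and below, is thus no measured absence. Pou4f1 had 338, 295, 266 and 274 CPM in neurofilament-rich spots, as above, against 20.8, 50.8, 0 and 0 CPM in inner nuclear spots (log2 fold 3.48, adjusted p = 0.000104). Pou4f2 had 10.4, 63.6, 0 and 0 CPM in inner nuclear spots (log2 fold 3.29 for neurofilament-rich minus inner nuclear, adjusted p = 0.000527). Of its 6 UMIs in the 180 inner nuclear spots all 6 lay in amacrine spots and 0 in bipolar spots, where the floor was 27.9 CPM.

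Nrn1 had 269 to 396 CPM in neurofilament-rich spots, against 51.9, 102, 0 and 0 CPM in inner nuclear spots (log2 fold 2.56, adjusted p = 0.000883). Slc17a6 had 238 to 408 CPM in neurofilament-rich spots, against 62.3, 76.3, 0 and 123 CPM (log2 fold 2.46, adjusted p = 0.000748). Thy1 had 345, 390, 298 and 333 CPM in neurofilament-rich spots, against 114, 127, 0 and 61.4 CPM (log2 fold 1.95, adjusted p = 0.00444). The inner nuclear values of Slc17a6 and Thy1 in frame 4 are 2 and 1 UMIs. These values sit beside the neurofilament markers of the inner nuclear spots, 2020 CPM on average in bipolar and 4848 CPM in amacrine spots, whose part in the members' levels was not tested.

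The call on Ebf1 was the least stable of the 6. Ebf1 had 131, 109, 108 and 176 CPM in neurofilament-rich spots, against 20.8, 12.7, 58.7 and 0 CPM in inner nuclear spots (log2 fold 2.33, adjusted p = 0.0276). Its adjusted p was 0.0472 without frame 4, 0.165, 0.178 and 0.0533 without frames 1, 2 and 3, and 0.084 with DESeq2. The call on Thy1 ended without frame 3 (adjusted p = 0.0528). Rbpms had 1 UMI in inner nuclear spots and 43 in neurofilament-rich spots, a ratio of 13.8 with an interval from 2.34 to 557. It fell short of the filter, and with no filter its log2 fold was 3.81 (adjusted p = 0.0877, edgeR).

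Isl1 ran the other way without passing a test. It had 27.6, 49.9, 21.7 and 26.1 CPM in neurofilament-rich spots, against 51.9, 89.0, 0 and 123 CPM in inner nuclear spots, where frame 3 had 0 UMIs and frames 1, 2 and 4 had 5, 7 and 2. Its pooled ratio of neurofilament-rich over inner nuclear spots was 0.526, with an interval from 0.26 to 1.11 that holds 1, and with no filter the log2 fold was -0.50 (adjusted p = 0.951). Bipolar spots of frames 1, 2 and 3 had 91.3, 121 and 0 CPM of Isl1, and 10.0% of the 80 bipolar spots held it (interval 4.42 to 18.8%), against 3.51% of neurofilament-rich spots (2.19 to 5.32%). With each spot thinned to 300 UMIs, 0 of 78 bipolar spots held it (interval 0 to 4.62%), against 4 of 563 neurofilament-rich spots (0.71%), so no order of these shares can be read. Amacrine spots had 3 UMIs, all in frame 2. Isl1 was thus higher in inner nuclear spots than in neurofilament-rich spots in 3 of 4 frames and lower in frame 3, at counts too low to settle its direction.

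Against fibrous spots, the collagen-rich coat of the eye, 5 of the 10 genes could be tested and all 5 were higher in neurofilament-rich spots, where 448 of 1512 genes tested (29.6%) were called, 247 (16.3%) higher and 201 (13.3%) lower. Each of the 5 could pass the filter through neurofilament-rich spots alone, so the count describes those 5. Thy1 and Nrn1 too rested on few UMIs in fibrous spots, 10 and 6. Slc17a6 had 0 UMIs in the 85 fibrous spots and 239 in neurofilament-rich spots. The neurofilament-rich level was 10.9 times a floor of 3 UMIs over the fibrous spots (adjusted p = 6.54e-05, edgeR). Pou4f1 and Pou4f2 had 1 UMI each in fibrous spots, with pooled ratios of 28.0 (interval 4.97 to 1111, adjusted p = 0.000432) and 23.9 (4.23 to 949, adjusted p = 0.00098). Fibrous spots held 2 UMIs in all of these 3 genes.

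Thy1 and Nrn1 were present there. Thy1 had 345, 390, 298 and 333 CPM in neurofilament-rich spots, against 111, 87.6, 158 and 0 CPM in fibrous spots (log2 fold 1.61, adjusted p = 0.0298). Nrn1 had 269, 340, 396 and 359 CPM in neurofilament-rich spots, against 73.7, 29.2, 39.6 and 214 CPM in fibrous spots (log2 fold 2.21, adjusted p = 0.00733), and 214 CPM in frame 4 is 2 UMIs. Fibrous spots of frame 4 held only 9326 UMIs of all genes, so 0 CPM of Thy1 there is no measured absence. Neither call held without frame 2 (adjusted p = 0.141 for Thy1 and 0.0655 for Nrn1), and that of Thy1 did not hold without frame 1 (adjusted p = 0.0944). Ebf1 had 4 UMIs in fibrous spots, a pooled ratio of 3.07 (interval 1.16 to 11.5), and fell short of the filter. With no filter its log2 fold was 2.34 (adjusted p = 0.0717, edgeR). The 4 comparisons share spots: the neurofilament-rich spots enter 3 of them, and 424 of the 476 spots of the top Nefl bin are neurofilament-rich.

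**Figure D4:**
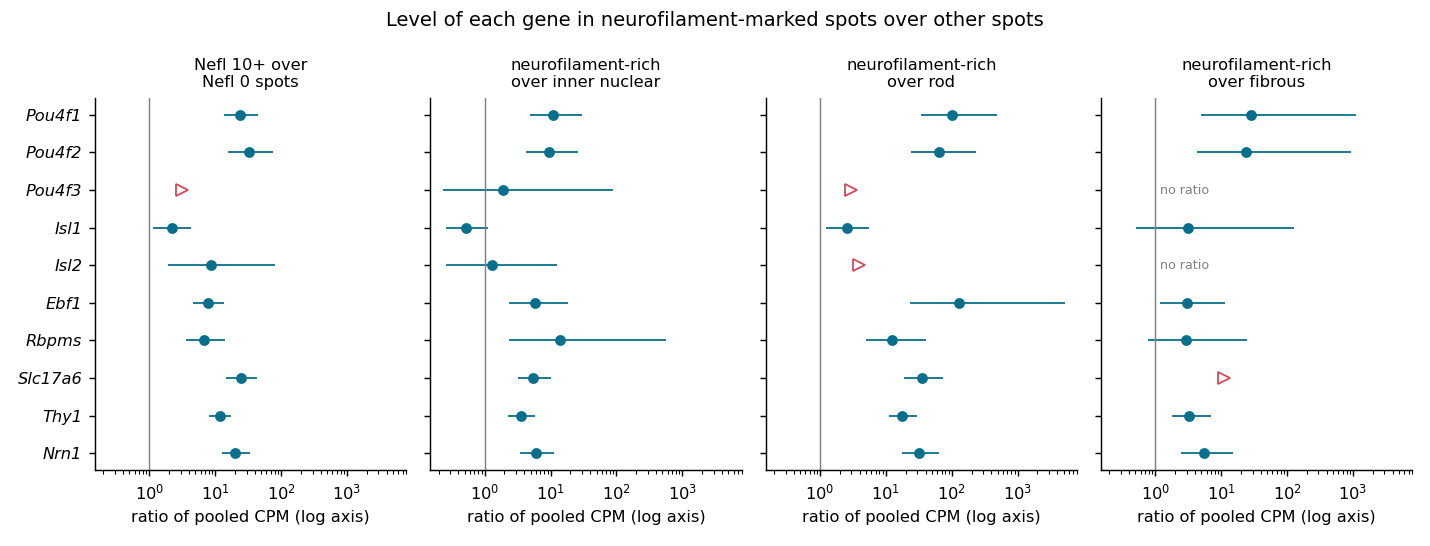
Ratio of pooled CPM, on a log axis, of spots with 10 or more Nefl UMIs over spots with none and of neurofilament-rich spots over inner nuclear, rod and fibrous spots, with 95% counting intervals. Open triangles are ratios to a floor of 3 UMIs where the lower side had 0 UMIs, and they leave out the counting error of the higher side. Isl1 over inner nuclear spots lies at 0.526 with an interval reaching 1.11, while Pou4f1 lies at 10.9 or higher in all 4 panels.

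Vessel genes bear on Ebf1 and Rbpms, which are also made in vessel walls. In the 71 vascular spots Ebf1 had 372, 0, 0 and 278 CPM and Rbpms 93.0, 48.9, 0 and 167 CPM in frames 1 to 4, from 9 and 5 UMIs. All 8 vascular markers were also detected in neurofilament-rich spots, at a summed 326 to 499 CPM, against 294 to 553 CPM in inner nuclear and 118 to 168 CPM in rod spots. A version added after seeing the data kept only spots without a vascular marker UMI, which may still hold vessel cells. There Ebf1 was higher in neurofilament-rich than in rod spots (log2 fold 6.08, adjusted p = 8.56e-08, edgeR), and Rbpms fell short of the filter. Against inner nuclear spots Ebf1 could not be tested in that version, and Pou4f1 was higher by 3.96 (adjusted p = 0.00184, edgeR). The part of vessel cells in the levels of Ebf1 and Rbpms was not tested.

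Co-detection asked whether the genes met in the same spots more often than their shares within each frame give. Among the 8 genes found in at least 50 spots there are 28 pairs, and 27 of them were found together more often than those shares give. The median ratio of observed to expected spots was 5.47, with frames' medians of 6.86, 4.58, 5.23 and 5.78. Pou4f1 and Slc17a6 had the largest ratio, with 80 shared spots against 9.78 expected (ratio 8.18). Pou4f1 and Pou4f2 shared 60 spots against 7.74 (ratio 7.75), which is 30.9% of the Pou4f1 spots and 32.8% of the Pou4f2 spots. Rbpms and Nrn1 shared 29 spots against 4.47 (ratio 6.49), and Thy1 and Nrn1 shared 89 against 16.2 (ratio 5.50).

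The 5 smallest ratios were all pairs of Isl1. It shared 1 spot with Rbpms against 1.37 expected (ratio 0.732), 7 with Pou4f1 against 3.20 (ratio 2.19) and 11 with Pou4f2 against 3.02 (ratio 3.64). With Ebf1 it shared 10 spots against 1.84 (ratio 5.44), so its low ratios did not extend to every partner. The counts behind these ratios are small, and no test was made of them.

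Spots of 1 frame share a section and differ in depth. Thinned to 300 UMIs per spot, the median ratio was 2.41 and 20 of 28 pairs lay above 1, with a median of 0.717 expected spots per pair. Within the 598 neurofilament-rich spots the median ratio was 1.72, and within those spots thinned it was 1.02, with 14 of 28 pairs above 1. Within neurofilament-rich spots at equal depth, pairs thus met about as often as their shares give, at a median of 1.57 expected spots per pair.

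**Figure D5:**
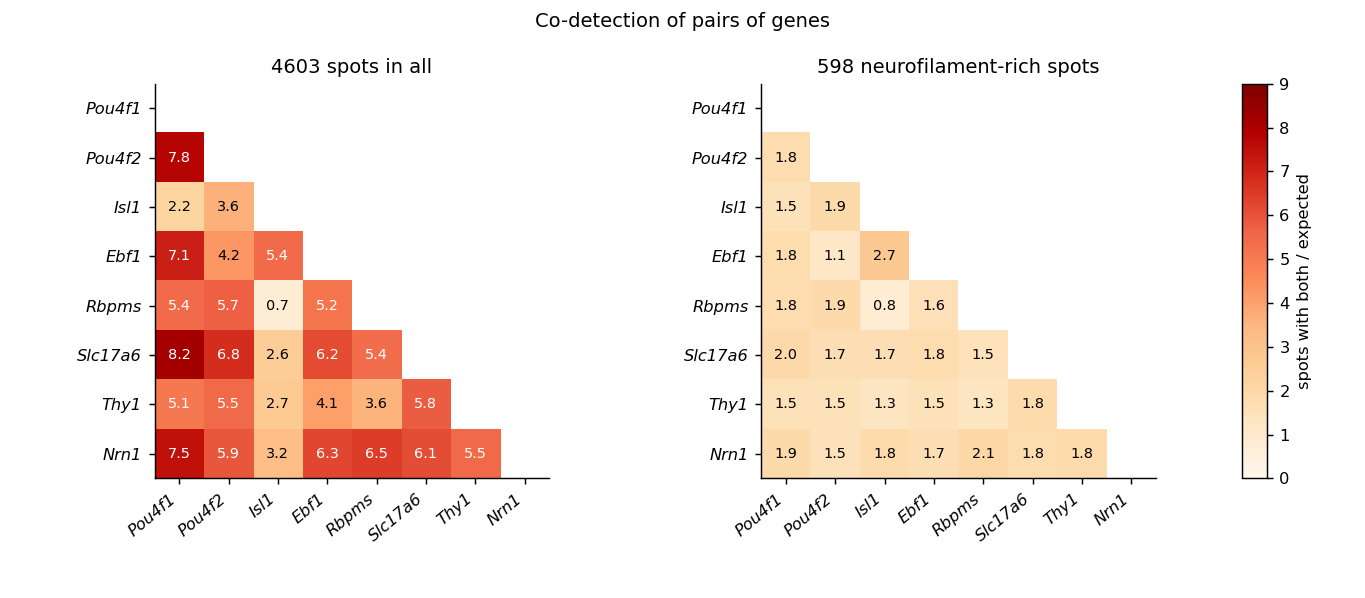
Ratio of the spots that held both genes to the number expected from each gene's share of spots within each frame, for 8 genes, in all 4603 spots and in the 598 neurofilament-rich spots. The median over 28 pairs is 5.47 in all spots and 1.72 in neurofilament-rich spots, and the pair of Isl1 and Rbpms lies below 1 in both.

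Counting the 10 genes in each spot, 3789 spots held 0, 485 held 1, 166 held 2 and 163 held at least 3 of them, up to 7 in 2 spots. Of the 163 spots with at least 3, 133 (81.6%) were neurofilament-rich and 14 were unplaced, and they fell to frames 1 to 4 as 40, 57, 30 and 36. Their median depth was 1863 UMIs, against 489 UMIs in spots with none. No rod spot and no fibrous spot held 3 or more.

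With the single markers of other layers, each of the 8 genes was found together with neurofilament genes above expectation, with a median ratio of 3.25 over 32 pairs. Thinned to 300 UMIs the median was 2.08 over 23 pairs, and Isl1 met them in 16 spots against 16.0 expected. The median ratio with amacrine markers was 2.80 (0.942 thinned), with glial markers 1.64 (1.13 thinned), with vascular markers 1.55 (0.894 thinned), with rod markers 0.753 (0.411 thinned) and with pigmented markers 0.616 (0.357 thinned). The thinned amacrine value rests on 13 pairs with Slc32a1 and Tfap2b alone, with ratios from 0.389 to 2.94, and the thinned glial and vascular values rest on 9 and 8 pairs. Summed over the 5 bipolar markers counted for it, Isl1 met them 57 times against 18.3 expected (ratio 3.12). Rbpms met its 5 bipolar markers 37 times against 18.3 (ratio 2.02). The other 6 genes, with 6 or 7 bipolar markers, had ratios from 0.912 for Pou4f2 to 1.57 for Thy1. Thinned, no bipolar pair of Isl1 or Rbpms reached the 2 expected spots needed, so their ratios are given at unequal depth only. The median over the 5 thinned bipolar pairs of other genes was 0.321. With rod markers Isl1 had a ratio of 1.01, against 0.920 for Rbpms and 0.648 to 0.865 for the other 6. These differences between genes were not tested.

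Other ganglion cell genes were taken from 4 lists of 69 genes. Of 20 axonal and neuronal genes, 15 were tested between the Nefl bins and 14 rose and 0 fell, where 23.0% of all genes tested were higher, with a median log2 fold of 3.10 against -0.02 over all genes tested. Uchl1, a deubiquitinating enzyme of neurons, rose by 3.92 on the log2 scale (adjusted p = 2.65e-08), the calcium-binding gene Calb2 by 3.65 (adjusted p = 2.75e-08) and the sodium pump subunit gene Atp1b1 by 2.74 (adjusted p = 7.07e-09). Against rod spots 14 of 15 rose in neurofilament-rich spots, where 29.5% of all genes tested did, and 1 fell, the microtubule-associated gene Map1b by 0.36 on the log2 scale (adjusted p = 0.0294), named after its value was seen. Against inner nuclear spots 6 of 14 rose (4.78% of all genes tested) and 0 fell, among them Calb2 (2.04, adjusted p = 0.000173) and the synaptic complexin gene Cplx1 (2.86, adjusted p = 0.00073), and against fibrous spots 7 of 11 rose (16.3% of all genes tested) and 0 fell. These genes too can pass the filter through the side where they are high.

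Lists of subtype, developmental and injury genes were mostly too low to test. Of 14 subtype genes, 4 were tested between the Nefl bins and 3 rose, namely Igf1, a growth factor gene (1.39, adjusted p = 0.00847), Cartpt, a neuropeptide gene of direction-selective ganglion cells (1.30, adjusted p = 0.0134), and Spp1, the osteopontin gene of alpha ganglion cells (1.50, adjusted p = 0.0198). In frame 4 Cartpt was lower in the top bin, by 0.42 on the log2 scale. Against rod spots 2 of the 3 tested rose, Cartpt (3.31, adjusted p = 3.17e-10) and Igf1 (3.33, adjusted p = 1.52e-06, edgeR), where 29.5% of all genes tested did. Against inner nuclear spots 0 of the 2 tested passed, with adjusted p = 0.606 for Igf1 and 0.787 for Cartpt. Of 25 further transcription factor genes, 1 was tested. It was Onecut2, a factor of ganglion and horizontal cells, which rose against rod spots (3.18, adjusted p = 3.99e-05) and had a log2 fold of 0.78 between the Nefl bins (adjusted p = 0.114). Of 10 injury genes, 3 were tested against rod spots, where 28.1% of all genes tested were lower. The kinase gene Map3k12 (-1.82, adjusted p = 4.38e-05) and the stress gene Gadd45a (-2.08, adjusted p = 0.000934) fell in neurofilament-rich spots, while Jun did not pass (-0.27, adjusted p = 0.61). Between the Nefl bins 2 were tested and 0 passed, with Map3k12 at -0.74 (adjusted p = 0.0612) and Jun at -0.62 (adjusted p = 0.208, edgeR).

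The genes whose level over frame-by-group sums was most like the summed level of the 10 genes were Ncs1, a neuronal calcium sensor (Pearson r = 0.839), Prune2 (r = 0.814), Scg2, a secretory granule protein (r = 0.797), Basp1, a growth cone protein (r = 0.786), and Nme7 (r = 0.785). These r describe 44 sums that share frames and depth, among 4805 genes, and carry no p. Ncs1 had 297 ± 69.1 CPM in neurofilament-rich spots, against 174 ± 66.7 CPM in inner nuclear, 117 ± 138 CPM in fibrous and 15.1 ± 8.59 CPM in rod spots. The gene most like Pou4f1 was the potassium channel gene Kcnh7 (r = 0.841), and the one most like Pou4f2 was Chrna6, a nicotinic receptor subunit gene (r = 0.752). For Ebf1 it was Calb2 (r = 0.730), for Slc17a6 Cplx1 (r = 0.767) and for Thy1 the calcium sensor gene Hpca (r = 0.774).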

How the data were processed

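Counts of UMIs per gene and spot were deposited as whole numbers by the authors, made with Space Ranger 2.0.0 per the file headers and with mm10 per the submitters' processing notes. Aligner settings were not found in these sources. Images and spot positions were not used here. The genes and lists were chosen with earlier results of these data known. A spot went to the marker list with the largest Pearson residual if that was at least 2, and was otherwise unplaced. UMIs were summed per frame and spot group, a frame entering with at least 10 spots in both groups. Tests used edgeR 4.0.16 (robust quasi-likelihood, TMM, filterByExpr minimum count 10, adjusted p limit 0.05) with the frame as block, because both groups come from the same frame. Markers that drew the groups were left out of tests and library sizes (Nefl alone for its bins). Residual correlations within frames were 0.028 to 0.16, and most lay below 0.1. On simulated counts for the inner nuclear comparison (1981 genes), 78.4% of 4-fold and 35.9% of 2-fold changes were recovered, with 8 false among 121 calls. That was a single draw with a dispersion set in advance and no frame effect beyond depth, so these rates need not hold for the real counts. Named are all 10 genes, Nefl, up to 3 genes per list and comparison with the lowest p, and the genes most alike by Pearson r of log2(CPM + 10), except for a gene that is not reported here. Whether the frames came from separate animals beyond their biological replicate labels is not stated, so p-values measure the spread between frames. DESeq2 1.42.0 was an alternative.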

Additional observations from a re-analysis of the deposited data

Results flagged for a closer look

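In 59 sets of 4 frames the highest or lowest frame was compared with the others by its gap over the range (Dixon's 95% limit for 4 values), and 6 stood apart, where chance gives about 1 in 20 of independent sets. These sets share spots and UMIs and some rest on low counts, so no excess over that rate can be read. Ebf1 in frame 4 had 81.6 CPM over the frame, against 33.5 to 40.3 CPM in the other frames, and 216 CPM in spots with 10 or more Nefl UMIs, against 87.9 to 99.8 CPM. Isl1 had 49.9 CPM in frame 2 in spots with 10 or more Nefl UMIs, against 25.4 to 27.8 CPM in the other frames. Slc17a6 had 239 CPM in frame 3 in those spots, against 358 to 383 CPM. In neurofilament-rich spots Rbpms had 77.1 CPM in frame 2, against 52.3 to 55.2 CPM, and the 10 genes together had 1588 CPM in frame 3, against 1868 to 1918 CPM.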

How the results depend on the processing

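Log2 folds were recomputed only for genes that entered the main fit of a comparison, all of them called there. Isl1, Isl2 and Pou4f3 thus gave none. Of these 260 recomputed folds, 250 kept direction and call, 10 kept direction only and 0 reversed. The calls lost among them are those on Ebf1 and Thy1 against inner nuclear spots and on Thy1 and Nrn1 against fibrous spots. The 260 also leave out settings in which such a gene did not enter the fit. A gene that missed the main filter is left out even where another setting, such as no filter, fitted it. Rbpms entered 8 settings between Nefl bins and 8 against rod spots, where Slc17a6 entered 11, and Ebf1 entered 9 against inner nuclear spots. Ebf1 against inner nuclear spots also lost its call with no filter (adjusted p = 0.053) and with the largest ratio in place of the residual (adjusted p = 0.0999). Leaving out 1 frame gave 1203 to 1595 called genes (6 to 7 of the 10 genes) between the Nefl bins, 61 to 207 (4 to 6) against inner nuclear, 1617 to 1981 (7 to 7) against rod and 268 to 515 (3 to 5) against fibrous spots, where the main counts were 1607, 190, 1902 and 448. It gave 539 to 612 CPM for the 10 genes and a median co-detection ratio of 5.16 to 5.98. Against inner nuclear spots the count was 124 with DESeq2, 100 with no filter, 122 with a residual of 3, 90 in spots without a vascular marker UMI and 3 of 209 genes thinned to 300 UMIs. Against rod spots it was 2892 with no filter and 488 thinned, and against fibrous spots 786 with no filter and 705 with the largest ratio. None of the 10 genes passed the filter in the thinned marker comparisons, so these say nothing on them. Between Nefl bins thinned to 300 UMIs, added after seeing the data with 3 or more against 0 Nefl UMIs, 542 of 1285 genes and 4 of 4 members tested were called. Thinning gave a co-detection median of 2.41 and shares of spots with a member of 34.4% (top bin), 2.95% (bottom bin) and 1.70% (rod). With no replicate block the called counts were 1622, 208, 1897 and 537, and no call on the 10 genes changed. Without TMM, 62.1% of calls between Nefl bins were higher, against 50.2% with it, as the median log2 fold of all genes moved to 0.19 against -0.02. With no filter the higher share was 76.0% against inner nuclear spots (49.5% in the main version) and 87.3% against fibrous spots (55.1%). The thinned version with 10 or more Nefl UMIs, the thinned fibrous comparison and that without vascular UMIs had under 3 frames and were not run. The cause of these shifts was not tested. At this depth Isl1, Isl2 and Pou4f3 passed the filter in none of the 4 comparisons, Rbpms missed it against inner nuclear and fibrous spots and Ebf1 against fibrous spots.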
